A study of Mus musculus with 34 samples.

Results

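The genes described are 9 regulators of messenger RNA decay in mouse cumulus cells (CCs): Zc3h12a, Zc3h12b, Zc3h12c and Zc3h12d, the Zfp36, Zfp36l1 and Zfp36l2 family, and Rc3h1 and Rc3h2. They were chosen by name, 9 of 25965 entries of the count table, and all 9 were found. Zc3h12c drew attention to the group because its level was higher after 16 weeks of high-fat diet, so every value of these genes in that comparison is a description without a test. The same holds for Zc3h12c in the comparisons of the low weight gainers, which reuse the 16-week libraries.

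CCs, a kind of granulosa cell, enclose the oocyte in the follicle and are shed with it at ovulation. Female C57BL/6J mice entered the protocols at 8 weeks of age and were superovulated before about 50 CCs were taken for each library. In the hyperleptinemic model, intraperitoneal injections were given for 16 days, of saline in 3 libraries (16 C) and of leptin at 100 μg daily in 5 (16 L). In the diet-induced obesity protocol, chow diet (CD, 11% of energy from fat) or high-fat diet (HFD, 58%) was fed for 4 weeks (n = 5 and n = 5) or 16 weeks (n = 6 and n = 7), and a low gainer group (n = 3) held mice whose weight rose little on 16 weeks of HFD. By the labels each library's cells came from 1 cumulus-oocyte complex, and by the study's methods from 1 animal, so that the spread between libraries is that between single complexes or animals.

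Regulators of this kind bind messenger RNA in its 3′ untranslated region (UTR) and shorten its life. The ZC3H12 proteins, or Regnases, are endonucleases that cut stem-loops in inflammatory transcripts. The ZFP36 proteins (tristetraprolin and its relatives) bind AU-rich elements and bring in the CCR4-NOT deadenylase, and the Roquins, RC3H1 and RC3H2, read stem-loops and do the same. Zfp36 is known as an immediate early gene, and Zfp36l2 as a gene that oocytes need for female fertility.

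Total counts ranged from 1104611 to 13207018 per library. Values below are CPM (reads per 1e6 counted reads) scaled by TMM (trimmed mean of M values, a correction for library composition) over the 34 libraries, and are called levels. All 12 markers of cumulus and granulosa cells had reads in each group, with summed levels from 2920 to 6010 outside 16 L and from 368 to 3880 within it. The library 16 L replicate 18 stood apart, with a median rank correlation of 0.638 to its own group, a summed level of 34300 for 7 oviduct epithelium markers and of 11200 for 3 red blood cell markers. The oviduct sums of 16 L replicates 19, 20, 21 and 23 were 10.5, 1110, 1740 and 299, against 26.5 to 108 in 16 C and at most 560 in any other group, so that 3 of the 5 leptin libraries lay above every library outside 16 L. Levels in a pool of cells cannot tell fewer cells of a type from less RNA per cell. The TMM factors of 16 C (0.64 to 0.738) lay below those of 16 L (0.873 to 1.32), and 16-week CD replicates 1 and 2 had the highest factors of their group, 1.37 being the largest.

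Rc3h1, Rc3h2, Zfp36l1, Zfp36l2, Zfp36 and Zc3h12c had reads in all 34 libraries, Zc3h12b was at 0 in 2 libraries, Zc3h12a in 6 and Zc3h12d in 14. Their total reads were 25517 for Rc3h1, 23392 for Zfp36l1, 15828 for Rc3h2 and 7695 for Zc3h12c, against 490 for Zc3h12b, 290 for Zc3h12a and 238 for Zc3h12d. Counts of 0 allow up to 3 reads, a limit that covers counting error only.

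**Figure D1:**
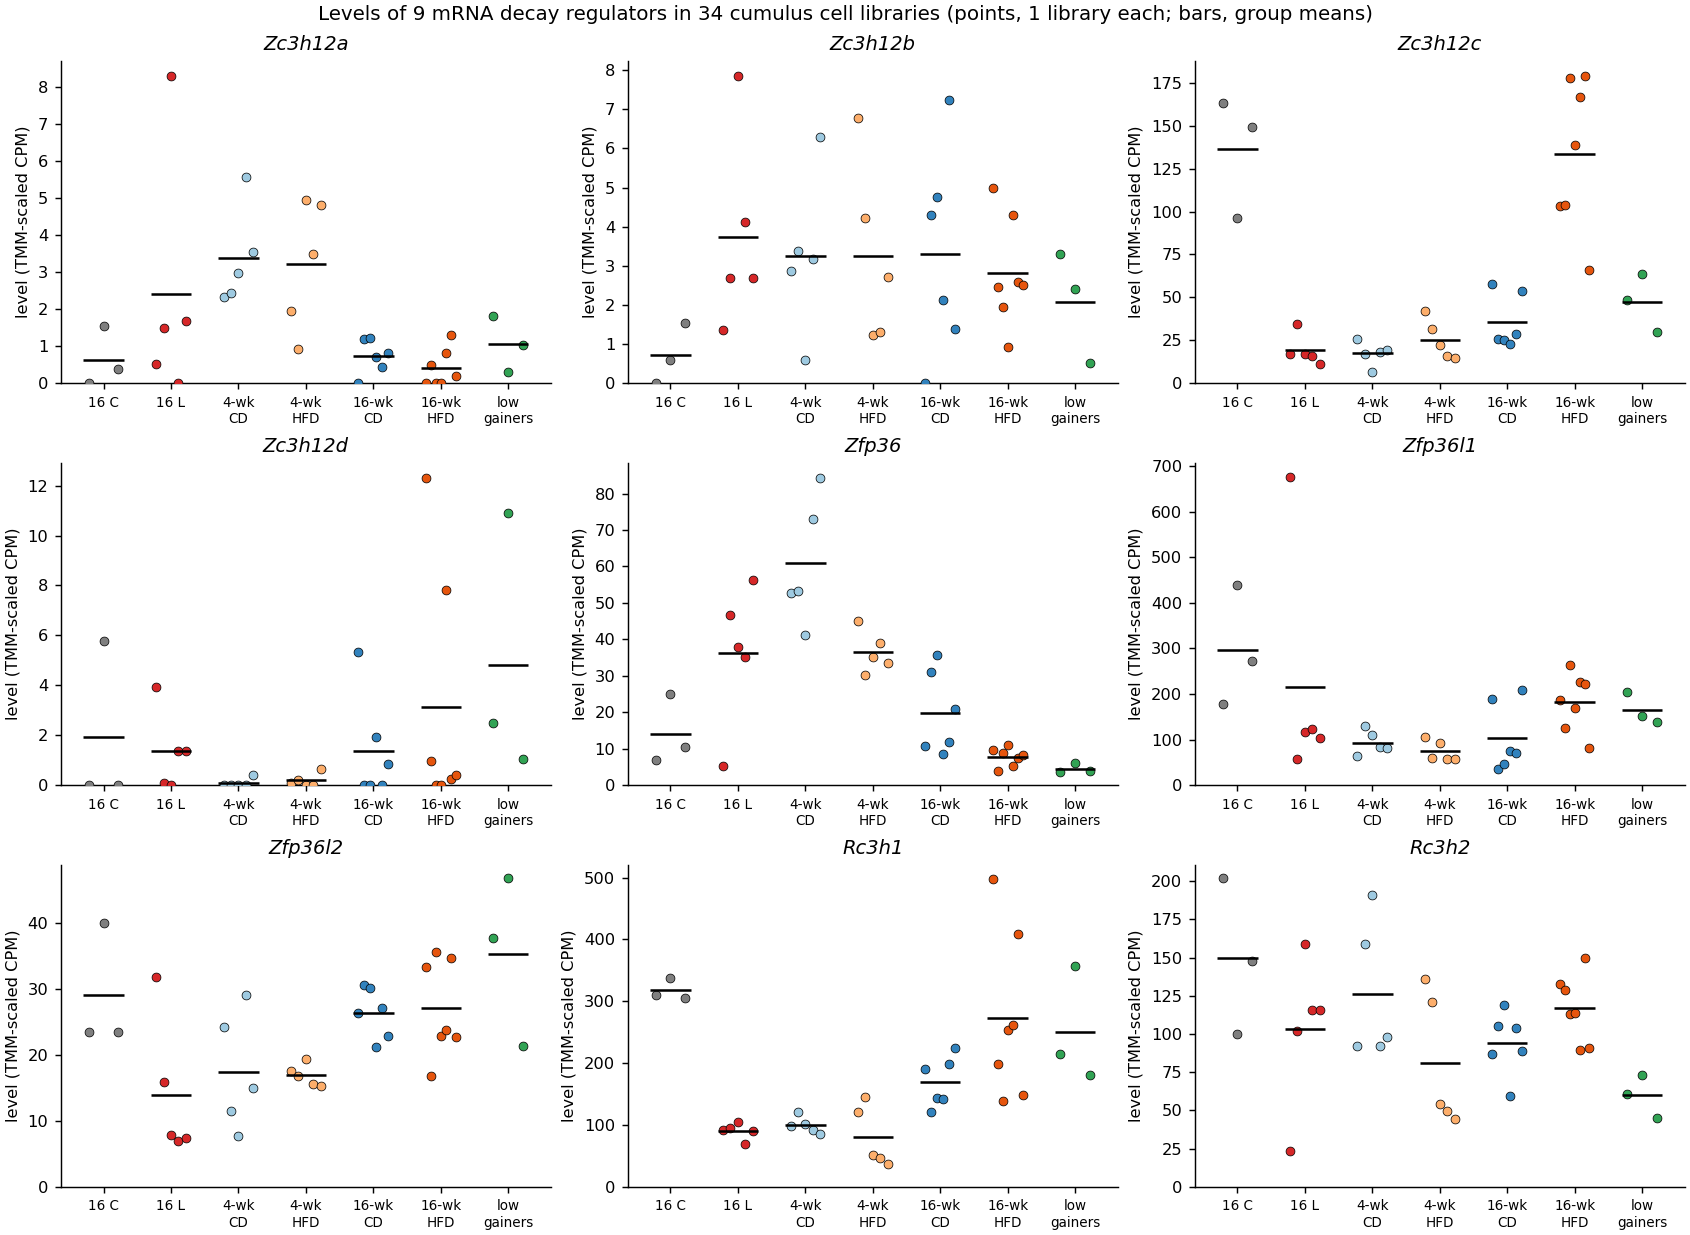
Level (TMM-scaled CPM, vertical axis from 0) of each of the 9 genes in each of the 34 libraries (points) by group, with group means as bars. Zc3h12c lies between 66.1 and 179 in 16-week HFD and between 96.5 and 163 in 16 C, and at or below 63.7 in all other groups.

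Scaled per kilobase of exon, where genes can be compared with each other, Zc3h12c was the most abundant Regnase messenger in the median library of each group. Its median share of the summed Regnase level per kilobase ran from 57.7% in 4-week CD to 98.5% in 16 C. Zfp36l1 held the largest median share of its family, from 48.9% in 4-week CD to 88.8% in 16 C. Zfp36 itself held 35.3% in 4-week CD and 2.09% in the low gainers. Between the Roquins, Rc3h1 had the larger median share in all 7 groups, from 57.6% in 16 L to 87.5% in the low gainers. The exon length is the union over all isoforms of the annotation, which sets these shares in part.

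Zfp36 messenger is known to be a target of its own protein through AU-rich elements, and such sites are therefore shown for the 3 genes that lead the results. The heptamer TATTTAT was searched on the sense strand of the longest annotated 3′ UTR of each gene, and 27.6% of 21025 protein-coding genes held it at least once. Zfp36 held 3 copies in 774 bases, a number reached by 1.51% of genes with a 3′ UTR within 10% of that length. Zfp36l1 and Zfp36l2 also held 3 each (4.8% and 4.88% of genes of similar length held as many), Rc3h2 held 3 in 5331 bases (18.4%), and Zc3h12c and Rc3h1 held 2 each in 4062 and 7181 bases (30.8% and 45.8%). Zc3h12a, Zc3h12b and Zc3h12d held none. The sites of Zfp36, Zc3h12c and Rc3h1 are given 5′ to 3′ in GRCm38, with the heptamer in capitals.
Zfp36, chr7:28376970-28376990, minus strand: ggcccttTATTTATgacgact
Zfp36, chr7:28376955-28376975, minus strand: acgacttTATTTATtgtatta
Zfp36, chr7:28376930-28376950, minus strand: tttatagTATTTATatatatt
Zc3h12c, chr9:52114866-52114886, minus strand: taatcatTATTTATaggaaca
Zc3h12c, chr9:52111987-52112007, minus strand: agtaataTATTTATaaaacaa
Rc3h1, chr1:160970047-160970067, plus strand: tactcatTATTTATtgagatg
Rc3h1, chr1:160971401-160971421, plus strand: tcccatgTATTTATtcttttg
A match is a description of the letters and not a measured binding site.

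The 250 bases before the start of Zc3h12c, Rc3h1 and Zfp36 are shown because the results below turn on these 3 messengers, which were picked after their values were seen. They come from RefSeq (GRCm38.p6), which held a promoter for 8 of the 9 genes. Searched on both strands were TTCNNNGAA (read by STAT factors), TGACGTCA (CRE), TGANTCA (AP-1) and the NF-kB consensus, held by 7.02%, 1.55%, 6.75% and 3.9% of 32851 promoter windows of this length. Capitals mark a match.
Zc3h12c, chr9:52168407-52168656, minus strand: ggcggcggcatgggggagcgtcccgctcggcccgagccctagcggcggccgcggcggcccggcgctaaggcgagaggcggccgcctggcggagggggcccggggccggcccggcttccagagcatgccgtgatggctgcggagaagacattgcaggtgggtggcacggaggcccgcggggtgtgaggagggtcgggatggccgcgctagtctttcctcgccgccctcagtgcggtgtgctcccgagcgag
Rc3h1, chr1:160906161-160906410, plus strand: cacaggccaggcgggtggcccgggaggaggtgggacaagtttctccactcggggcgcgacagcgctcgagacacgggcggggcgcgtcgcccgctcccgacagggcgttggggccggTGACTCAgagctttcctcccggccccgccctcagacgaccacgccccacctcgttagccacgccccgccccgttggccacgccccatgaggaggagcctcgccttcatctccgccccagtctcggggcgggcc
Zfp36, chr7:28379229-28379478, minus strand: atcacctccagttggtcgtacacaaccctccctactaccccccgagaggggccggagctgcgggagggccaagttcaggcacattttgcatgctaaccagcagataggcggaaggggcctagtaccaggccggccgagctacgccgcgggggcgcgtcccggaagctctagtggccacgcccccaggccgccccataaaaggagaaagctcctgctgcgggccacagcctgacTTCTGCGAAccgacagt
RefSeq lists a second Zc3h12c promoter (chr9:52149364-52149613, minus strand), not printed here, which also had no match, with 48.0% G and C and 3 CG pairs. The Zc3h12c window printed had no match, the Rc3h1 window 1 AP-1 match and the Zfp36 window 1 STAT match. The Zfp36 window reaches into the gene span given below (28376784-28379255), where the start differs from that of RefSeq. The STAT match lies inside that span. G and C made up 76.4%, 74.0% and 64.8% of the 3 printed windows, with 33, 29 and 18 CG pairs, against medians of 52.4% and 6.0 over all windows.

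The first comparison sets leptin injection against saline injection. The paper reported lower body weight in leptin-injected mice at some time points, and the part of weight here was not tested. Zc3h12c, on chromosome 9 (52111985-52168111, minus strand), encodes a Regnase known from macrophages and endothelium. In 16 C its levels were 163, 96.5 and 149, and in 16 L they were 16.9, 34.5, 17.0, 15.8 and 11.5. All 5 leptin libraries lay under all 3 saline libraries. Zc3h12c fell 7.04-fold in 16 L (log2 fold change -2.82, SE 0.401, adjusted p = 0.0111 by edgeR's quasi-likelihood test), from a mean of 136 ± 34.9 (SD, n = 3) to 19.2 ± 8.9 (n = 5). Markers of other cells moved with this comparison. Of the 7 oviduct markers 4 passed the filter. Ltf, which encodes lactoferrin, had a mean of 0.276 in 16 C and 57.3 in 16 L. It passed the filter through 16 L alone, so no test of it is given. Replicate 19, whose oviduct sum of 10.5 was below those of 16 C, had the highest Zc3h12c level of 16 L, 34.5, which was under the lowest of 16 C, 96.5. Replicate 19 differed in another way, with a mitochondrial share of reads of 4.71%. That share was 0.335% to 0.628% in 16 C and 0.435% to 0.654% in the other 16 L libraries. The part of other cells in the fall was not tested, and 1 library cannot decide it.

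Rc3h1, which encodes Roquin-1 and lies on chromosome 1 (160906418-160974978, plus strand), moved with it. Its levels were 310, 338 and 306 in 16 C and 92.4, 95.1, 105, 69.6 and 90.7 in 16 L. The groups did not overlap, and within each the libraries were close, with SDs of 17 and 12.9. Rc3h1 fell 3.53-fold (log2 fold change -1.82, SE 0.287, adjusted p = 0.0131, edgeR). These were the 2 members called of 7 tested, where 8.56% of 11723 genes were called, 4.5% lower and 4.06% higher, and over all genes the fold changes had a median of 0.273 (log2). Groups were apart with 16 L lower for 11.2% of genes. With library totals in place of TMM the calls over all genes were 3567 higher and 399 lower, where TMM gave 476 and 528.

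The scaling and single saline libraries bore on these values. With library totals the median over all genes moved to 1.07, and the log2 fold changes were -2.04 for Zc3h12c and -1.01 for Rc3h1, with adjusted p of 0.0137 and 0.0333 (edgeR). Without 16 C replicate 1 or 3 the adjusted p of Zc3h12c was 0.0574 and 0.0577. Without 16 C replicate 1, 2 or 3 or 16 L replicate 20 or 23, that of Rc3h1 lay between 0.0508 and 0.0762.

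Zfp36, on chromosome 7 (28376784-28379255, minus strand), encodes tristetraprolin. Its levels were 6.81, 25 and 10.4 in 16 C, and 5.29, 46.6, 37.9, 35.1 and 56.3 in 16 L. The lowest value belongs to replicate 18, the library rich in oviduct and red cell transcripts, and the other 4 leptin libraries lay above all saline libraries. The log2 fold change was 1.30 (SE 0.704, adjusted p = 0.226, edgeR) with all libraries and 1.45 (adjusted p = 0.0256) without replicate 18. Many more genes of all kinds were called without that library, as given below.

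Zfp36l1 and Zfp36l2, its paralogs, also turned on that library. Zfp36l1 was at 179, 440 and 272 in 16 C and at 676, 56.2, 116, 123 and 103 in 16 L, 676 being replicate 18. Zfp36l2 was at 23.5, 39.9 and 23.5 in 16 C and at 31.8, 15.8, 7.84, 6.89 and 7.42 in 16 L, 31.8 being the same library. In both genes the other 4 leptin libraries lay below all saline libraries. The log2 fold changes of -0.45 and -1.03 had adjusted p of 0.712 and 0.229 (edgeR). Without replicate 18 both were -1.69, with adjusted p of 0.00756 and 0.00809, and 5 members were called. That setting also raised the number of genes called to 4635, from 1004 of 11723 tested with all libraries. A call was thus common among all genes there, and the 5 calls are not particular to the members.

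Rc3h2, the second Roquin, was at 202, 100 and 148 in 16 C and at 23.6, 102, 159, 116 and 116 in 16 L, again lowest in replicate 18. The groups overlapped (log2 fold change -0.55, SE 0.521, adjusted p = 0.487, edgeR), and with library totals the value was 0.32. Zc3h12b was at 0, 0.591 and 1.54 in 16 C and at 1.37 to 7.84 in 16 L, where 0 to 5 and 6 to 27 reads stood behind the values (log2 fold change 2.21, SE 0.957, adjusted p = 0.143, edgeR). Zc3h12a and Zc3h12d had too few reads for the fit. By an exact permutation test of mean log2(RPM + 1), RPM being reads scaled to the library total alone, their differences were 1.01 (p = 0.25) and 0.31 (p = 0.786), two-sided.

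**Figure D2:**
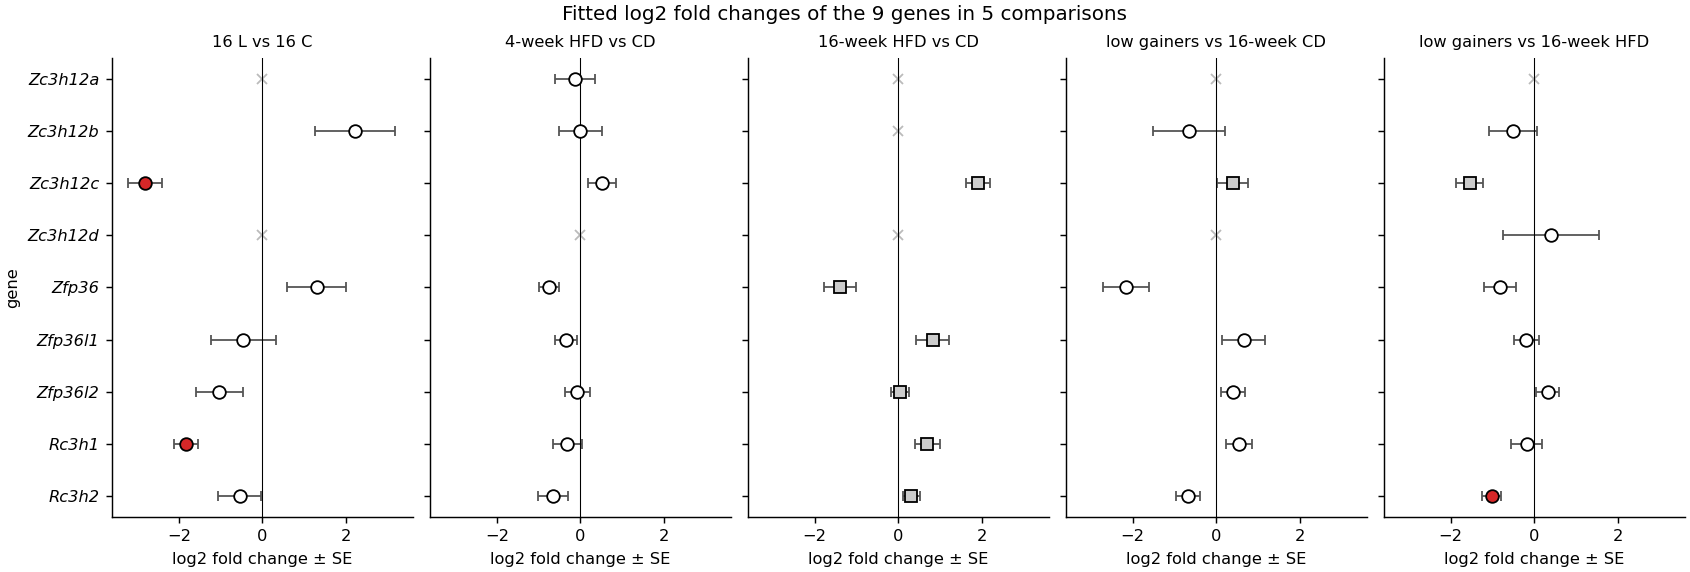
Fitted log2 fold change (horizontal axis) with its SE for each gene in 5 comparisons. Red circles passed an adjusted p of 0.05, white circles did not, grey squares are descriptions without a test, and a cross marks a gene with too few reads. Zc3h12c and Rc3h1 lie at -2.82 and -1.82 in 16 L, and Rc3h2 at -1.02 in low gainers against 16-week HFD.

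After 4 weeks of HFD no member was called of 8 tested by edgeR, where 4.26% of 11727 genes were, 1.19% higher and 3.06% lower. An unadjusted p under 0.05 was reached by 1 member, Zfp36, and by 24.3% of genes. In none of the 9 genes were the diet groups apart, as they were in 6.61% of genes, 2.87% with HFD higher and 3.73% with HFD lower. Zfp36 was at 52.6, 53.2, 41.1, 73.0 and 84.4 in CD and at 45.1, 30.1, 35.2, 39.1 and 33.4 in HFD. The 4-week CD group had the highest mean of the 7 groups, 60.8 ± 17.4 (SD, n = 5), and 4 of the 5 HFD libraries lay below all of them. The log2 fold change was -0.76 (SE 0.236, adjusted p = 0.0766, edgeR), and DESeq2 gave -0.73 with an adjusted p of 0.0314, its 1 call among the members. DESeq2 called 1292 genes in all, where edgeR called 499. Without 4-week CD replicate 11 edgeR's adjusted p for Zfp36 was 0.04.

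Zc3h12c at 4 weeks was at 25.6, 17.2, 6.55, 18.5 and 19.6 in CD and at 41.9, 31.9, 22.3, 15.9 and 14.6 in HFD. Replicates 13 and 14 of HFD lay above all CD libraries and the other 3 within their range (log2 fold change 0.52, SE 0.346, adjusted p = 0.368, edgeR). The same HFD libraries, 13 and 14, were the high ones for Rc3h1 (121 and 145, against 37.4 to 50.8 in the other 3) and for Rc3h2 (136 and 121, against 44.1 to 54.4). In these 2 genes the HFD group was split, and its range overlapped that of CD (85.1 to 121 for Rc3h1, 92 to 191 for Rc3h2). The log2 fold changes were -0.31 (adjusted p = 0.594) and -0.65 (adjusted p = 0.273) by edgeR. The summed cumulus and granulosa markers split the same way, 3990 and 3320 in HFD replicates 13 and 14 and 5420 to 6000 in the others. HFD replicate 5 also had an oocyte marker sum of 515, where every other library had at most 23.9. The part of these marker differences in the levels was not tested.

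Of the other members, Zfp36l1 ranged from 62.8 to 129 in CD and from 56.1 to 105 in HFD, and Zfp36l2 from 7.74 to 29.0 and from 15.2 to 19.4. Their log2 fold changes were -0.34 (SE 0.266) and -0.07 (SE 0.304). Zc3h12a, the founding Regnase, had its highest group means at this time, 3.37 ± 1.32 in CD and 3.22 ± 1.76 in HFD (SD, n = 5 each), with a log2 fold change of -0.12 (SE 0.474). Zc3h12b had the same mean within 0.01 in both, 3.26 and 3.25. Zc3h12d had 1 read in the 5 CD libraries and 7 in the 5 HFD libraries, and its exact permutation p was 0.563.

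The 16-week diet comparison is the one through which the group was chosen. The lowest, median and highest Zc3h12c levels were 23.1, 27.5 and 57.9 on CD, and 66.1, 139 and 179 on HFD. The groups did not overlap. The means were 35.9 ± 15.6 (SD, n = 6) and 134 ± 43.8 (n = 7), a fitted log2 fold change of 1.91 (SE 0.298), that is 3.75-fold, and over the alternatives run it stayed between 1.62 and 2.09. In this comparison edgeR called 0.0276% of 10861 genes (0.00921% higher, 0.0184% lower), and the groups were apart in 0.994%, with HFD higher in 0.497% and lower in 0.497%. Since this comparison chose the gene, nothing is read from these shares.

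Zfp36 stood the other way round. Its lowest, median and highest levels were 8.47, 16.3 and 35.6 on CD and 3.92, 8.35 and 11.0 on HFD, with a log2 fold change of -1.39 (SE 0.377). The 2 highest CD values, 31 and 35.6, belong to replicates 1 and 2, whose TMM factors were the highest of that group. With both left out together the log2 fold change was -0.72. Rc3h1 was at 121 to 224 in CD (median 167) and 139 to 498 in HFD (median 254), and Zfp36l1 at 36.3 to 208 (median 71.7) and 80.5 to 264 (median 187). Both pairs of ranges overlapped, with log2 fold changes of 0.70 (SE 0.301) and 0.83 (SE 0.397). Rc3h2 (0.31, SE 0.205) and Zfp36l2 (0.04, SE 0.222) differed less between the diets, and with library totals in place of TMM their values were -0.08 and -0.37. Zc3h12a had 22 reads in the 6 CD libraries and 10 in the 7 HFD libraries, Zc3h12b 86 and 63, and Zc3h12d 25 and 71.

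The low weight gainers ate HFD for 16 weeks and gained little weight on it. Their levels cannot tell diet and weight gain from other differences of these mice. The low gainers are compared with the same 16-week CD and HFD libraries as above, so the values of each comparison are given side by side. Zc3h12c was at 48.3, 63.7 and 29.9 in the low gainers, below all 7 libraries of 16-week HFD and within or just above the range of 16-week CD. Of all genes 8.83% lay below HFD in this way. Zc3h12c was chosen for being high in these HFD libraries beside these CD libraries, so its place here is not separate from that choice. The means were 47.3 ± 16.9 (SD, n = 3), 134 and 35.9, and the log2 fold changes were -1.54 (SE 0.319) against HFD and 0.39 (SE 0.374) against CD, both without a test.

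Zfp36 did not share that position. It was at 3.62, 6.04 and 3.90 in the low gainers, below all 6 CD libraries (as 3.92% of genes were, with 3.61% above and 7.52% apart in all) and below or within the HFD range of 3.92 to 11.0. Against CD the log2 fold change was -2.16 (SE 0.555, adjusted p = 0.257, edgeR), with an adjusted p of 0.0113 by DESeq2 and a range of 0.0113 to 0.832 over the alternatives. Without 16-week CD replicates 1 and 2 together it was -1.53. Against HFD it was -0.81 (SE 0.382, adjusted p = 0.133, edgeR).

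Rc3h2 had its lowest group mean here, 59.7 ± 14.4 (SD, n = 3), from levels of 61.0, 73.4 and 44.8. All 3 lay below the 7 libraries of 16-week HFD, whose lowest, median and highest levels were 89.5, 114 and 150. Rc3h2 was 2.02-fold lower than in 16-week HFD (log2 fold change -1.02, SE 0.230, adjusted p = 0.00667, edgeR). It was the 1 member called of the 7 tested besides Zc3h12c, where 20.7% of 11258 genes were called, 9.93% lower. The groups were apart in 20.4% of genes, with the low gainers lower in 8.83%, so both shares are large for any gene in this comparison. With library totals the calls over all genes were 1583 higher and 598 lower, where TMM gave 1212 and 1118. Other measures moved with this comparison. The mitochondrial share of reads was 0.337% to 0.614% in the low gainers and 0.786% to 1.53% in HFD, and the summed cumulus and granulosa markers 5280 to 6010 and 3140 to 4750, both apart. The single markers did not all go with that sum. Of 11 cumulus and granulosa markers tested 2 were called higher and 3 lower, and the median log2 fold change was -0.73. Of 9 macrophage and neutrophil markers tested 5 had a positive log2 fold change and 1 was called. It was S100a8, a neutrophil gene (1.18 to 35.3, log2 fold change 4.72, adjusted p = 0.0185, edgeR). Its level in HFD was low, so its passing the filter may rest on the low gainers. The summed levels of that list overlapped, 313 to 379 in the low gainers and 140 to 686 in HFD. The part of these measures in the result was not tested. Without low gainer replicate 23 the adjusted p of Rc3h2 was 0.0689, and with all 34 libraries in one fit it was 0.166. Against 16-week CD, where the range was 59.1 to 119, its log2 fold change was -0.67 (SE 0.286, adjusted p = 0.42, edgeR).

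Rc3h1 had another position than Rc3h2 in these mice, though the difference between the genes was not tested. It was at 215, 357 and 180 in the low gainers, inside the HFD range of 139 to 498, and 1 of the 3 lay above the CD range (log2 fold change -0.18, SE 0.37 against HFD and 0.55, SE 0.307 against CD, adjusted p = 0.765 and 0.524, edgeR). Zfp36l1 (204, 152 and 139) and Zfp36l2 (37.7, 46.8 and 21.3) lay within the HFD range but for 2 libraries of Zfp36l2 above it. Their log2 fold changes were -0.19 (SE 0.298) and 0.33 (SE 0.276) against HFD, and 0.66 (SE 0.519) and 0.41 (SE 0.288) against CD. Of the 6 members tested against CD, none was called by edgeR, where it called 0.00861% of 11620 genes. DESeq2 called 1 member (Zfp36) and 225 genes in all, where edgeR called 1 gene. An unadjusted p under 0.05 by edgeR was reached by 2 of the 6 members, Zfp36 and Rc3h2, and by 11.2% of genes. Against HFD the values of Zfp36l1 and Rc3h1 turned positive with library totals, 0.0077 and 0.0031.

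The Regnases with few reads gave no call in the low gainers. Zc3h12a had 16 reads in the 3 libraries and differed by 0.114 from CD (exact permutation p = 0.786) and by 0.539 from HFD (p = 0.133) on the log2 scale. Zc3h12b was at 3.30, 2.42 and 0.52, with log2 fold changes of -0.66 (SE 0.865) against CD and -0.51 (SE 0.568) against HFD. Zc3h12d was at 2.47, 10.9 and 1.04, and its value against HFD changed from 0.40 (SE 1.15) to -0.92 without replicate 22.

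Zc3h12d, a Regnase known from lymphocytes, was concentrated in a few libraries. Its highest levels were 12.3 and 7.80 in 16-week HFD replicates 10 and 15, 10.9 in low gainer replicate 22, 5.79 in 16 C replicate 2, 5.35 in 16-week CD replicate 13 and 3.93 in 16 L replicate 18. Replicate 10 of 16-week HFD also had the highest sum of its group for lymphocyte markers (61.9), oviduct markers (560) and red blood cell markers (185). In low gainer replicate 22 these sums were the highest of the group as well, 28.4, 305 and 95.8. Replicate 15 of 16-week HFD had a lymphocyte sum of 56.7. Libraries rich in lymphocyte markers did not all have a high Zc3h12d level. In 16 L, replicate 23 had a lymphocyte sum of 60.7 and a Zc3h12d level of 1.35, from 4 reads. Replicate 20 of 16 L had a lymphocyte sum of 54.5 and a Zc3h12d level of 0. The lymphocyte sums came from 5 of 8 markers in 16-week HFD and 4 of 8 in the low gainers, with Cd3e, Cd4 and Cd8a at 0 in both groups. The part of such cells in the Zc3h12d values was not tested.

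Seen over all groups, Zc3h12c had a high range and a low range. The group means ran 136 in 16 C, 134 in 16-week HFD, 47.3 in the low gainers, 35.9 in 16-week CD, 25.3 in 4-week HFD, 19.2 in 16 L and 17.5 in 4-week CD. In this order 16-week HFD and the low gainers were the 1 pair of neighbours whose libraries did not overlap. The saline control of the leptin protocol had a level near that of 16-week HFD and above all libraries of both chow groups. The protocols were run apart and the 16 C mice are compared with 16 L alone, so this order is a description. With library totals the ratio of the highest to the lowest group mean was 4.91 in place of 7.79.

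Zfp36 had its lowest means in the 3 groups with the highest Zc3h12c means, but among these the order was the same and not the reverse. Its means ran from 60.8 in 4-week CD, 36.6 in 4-week HFD and 36.3 in 16 L through 19.8 in 16-week CD and 14.1 in 16 C to 7.76 in 16-week HFD and 4.52 in the low gainers. Neighbours in this order overlapped throughout. Rc3h1 shared with Zc3h12c the order of its 4 highest groups, with means of 318 in 16 C, 273 in 16-week HFD, 251 in the low gainers, 170 in 16-week CD and 99.7, 90.5 and 80.1 in 4-week CD, 16 L and 4-week HFD. In the 3 lowest groups its order was the reverse of that of Zc3h12c, and in the low gainers Rc3h1 overlapped its 16-week HFD range where Zc3h12c was apart from it. Per library the median of the log2 ratio of Zc3h12c to Zfp36 was 4.3 in 16-week HFD, 3.81 in 16 C and 3.37 in the low gainers, against -1.13 in 16 L and -1.97 in 4-week CD.

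**Figure D3:**
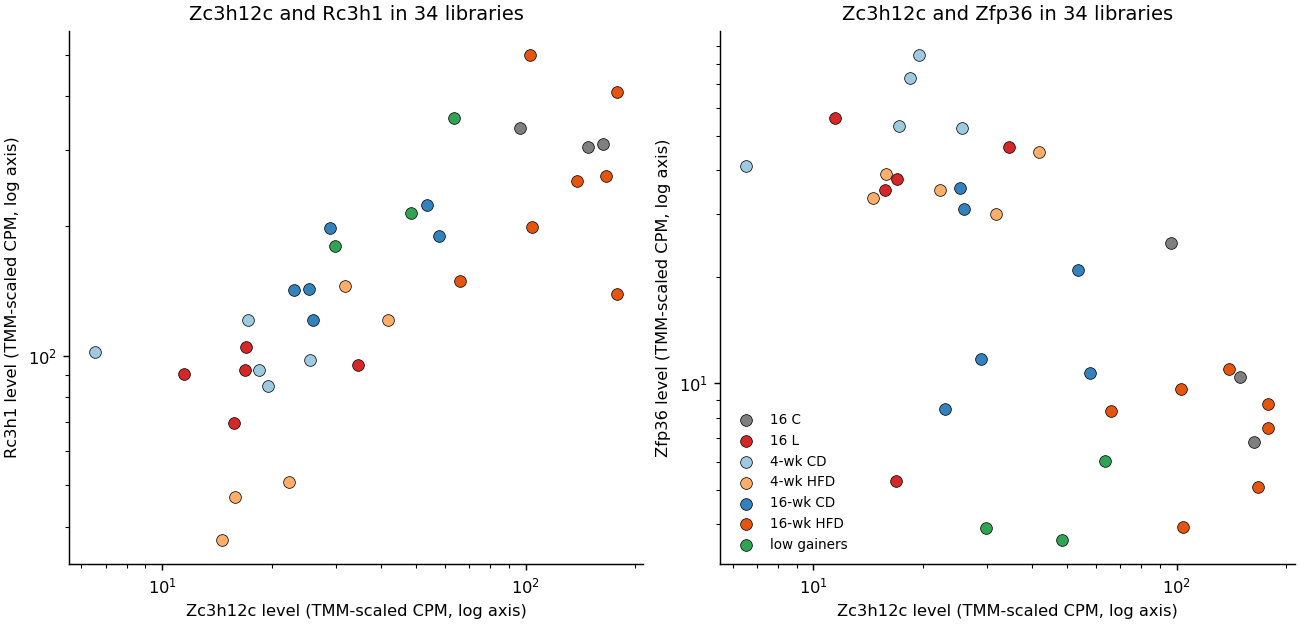
Levels of Zc3h12c (horizontal) against Rc3h1 (left panel) and Zfp36 (right panel) in 34 libraries, on log axes in TMM-scaled CPM, coloured by group. Rc3h1 rises with Zc3h12c (Spearman rho 0.834), and the 16-week HFD and 16 C libraries lie at high Zc3h12c and low Zfp36.

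Over the 34 libraries the Spearman correlation of Zc3h12c was 0.834 with Rc3h1, 0.589 with Zfp36l2, 0.537 with Zfp36l1 and -0.622 with Zfp36. With group means subtracted these were 0.496, 0.408, 0.319 and 0.00443, and that with Zfp36 was near 0 within groups. The libraries share a normalization, and Zc3h12c correlated at -0.766 with the TMM factor (-0.28 within groups), Rc3h1 at -0.763 (-0.465) and Zfp36 at 0.715 (0.395). The part of library composition in these correlations was not tested. The genes most like Zc3h12c by Spearman correlation were Klhl24 (0.965), Abi2 (0.94), Rabgap1 (0.936), Taok1 (0.925) and Zfp266 (0.922), and within groups these gave 0.62 to 0.796.

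For the other members the 3 genes most alike were Ado, Rragd and Zfp207 for Rc3h1 (0.945 to 0.902), Nr2f2, Mfap1b and 9130230N09Rik for Zfp36l1 (0.941 to 0.918), and Foxo1, Atxn1l and Xist for Zfp36 (0.905 to 0.879). They were BC024659, Lcor and Trove2 for Rc3h2 (0.833 to 0.802), and Pde4dip, Naif1 and Pcnp for Zfp36l2 (0.783 to 0.748). Among the sparse Regnases they were 9130221H12Rik, Mboat7 and Gas2l1 for Zc3h12a (0.835 to 0.819), Crip2, Tspan13 and Ptafr for Zc3h12d (0.784 to 0.73), and Socs4, Zfp192 and B3galnt2 for Zc3h12b (0.708 to 0.683).

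The proteins act through a decay machinery whose genes were taken from lists of its known components: deadenylases and their BTG/TOB adaptors, decapping and 5′ decay, the exosome, nonsense-mediated decay, other 3′ UTR binding proteins, microRNA effectors, and kinases, proteases and partners of the members. Together 80 of these genes were tested in each comparison. In 16 L 4 were higher and 5 lower, 11.2% against 8.56% of all genes. After 4 weeks of HFD 1 was higher and 1 lower, 2.5% against 4.26%. In the low gainers against 16-week HFD 6 were higher and 14 lower, 25% against 20.7%. In 16-week HFD, and in the low gainers against CD, none of the 80 was called, where edgeR called 3 genes and 1 gene in all. The medians of the 80 were -0.032, -0.147 and -0.133 in the first 3 comparisons, where those of all genes were 0.273, -0.00985 and -0.0302. The split by direction followed the scaling. With library totals 20 of the 80 were higher and 3 lower in 16 L, 12 were lower and 2 higher in 16-week HFD, and 7 were higher and 5 lower in the low gainers against HFD. All genes of these lists named below kept their direction under TMM, RLE, library totals and DESeq2.

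Within the lists, Tob1 and Btg1, which link the CCR4-NOT deadenylase to transcripts and restrain growth, had the largest called falls in 16 L. Tob1 went from a mean level of 303 to 39.4 (log2 fold change -2.95, SE 0.369, adjusted p = 0.00758) and Btg1 from 826 to 109 (-2.92, SE 0.698, adjusted p = 0.038), by edgeR. Of the 5 adaptors tested these 2 fell, none rose, and the median was -0.73. Of 15 exosome genes Skiv2l, a helicase that feeds RNA to the exosome, rose (1.96), and Wdr61 (-1.70) and Exosc8 (-1.50) fell. With library totals Wdr61 and Exosc8 had adjusted p of 0.0552 and 0.0845. Of 9 partners 3 rose, among them Mapkapk2 (2.02), the kinase known to phosphorylate tristetraprolin, and Ikbkb (1.53), a kinase that marks Regnase-1 for destruction, with a list median of 0.49. None of the 13 deadenylase or 17 decapping genes was called in 16 L, with list medians of 0.03 and 0.17.

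After 4 weeks of HFD the adaptor Btg3 rose (1.31, adjusted p = 0.0333) and Tnrc6c, a microRNA effector, fell (-1.24, adjusted p = 0.0425), by edgeR. In the low gainers, the helicase Ddx6 of decapping had the largest called fall against 16-week HFD among these lists (-1.57, SE 0.272, adjusted p = 0.0018), from a mean of 195 to 67.5. Of 17 decapping genes 5 were lower, with Lsm5 (-1.26) next, and 2 higher, Edc4 (1.20) and Edc3 (0.81). That is 29.4% lower and 41.2% called, beside 9.93% and 20.7% of all genes, but with library totals 1 was lower and 2 higher, Lsm5 having an adjusted p of 0.0507. Of 13 deadenylase genes 3 were lower, including Cnot6l (-1.13) and Pan3 (-1.04), and with library totals 2 were. Dis3l2 (1.02) and Exosc10 (0.79) of the exosome list, and Mapk14 (0.92) and Ikbkb (0.85) among the partners, were higher. Wdr61 (-0.77), Smg1 (-0.74), Pum2 (-0.92), Tia1 (-0.80), Tnrc6b (-0.77) and Irak1 (-0.81) were lower. The genes named for this comparison number 20 with Ptgs2, Fos, Nr4a1 and Klf6, which are given below, and are not the 20 called machinery genes. With library totals 11 of these named genes passed the threshold, Ddx6, Cnot6l, Pum2, Tia1 and Nr4a1 among them.

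Transcripts reported elsewhere as targets of these proteins were counted too. Of 23 genes 14 passed the filter in the leptin comparison, and 1 fell and none rose, where 8.56% of all genes were called. No median is given, since some passed the filter through 16 L alone, such as Cxcl2 (0 to 8.01) and Il1b (0.0394 to 6.02), which were not called. The 1 was Myc, a growth regulator (280 to 44.7, log2 fold change -2.65, SE 0.544, adjusted p = 0.027, edgeR). At 4 weeks of HFD 1 of 13 fell, Vegfa, the angiogenic factor (91.7 to 22.2, -2.06, SE 0.342, adjusted p = 0.0136), where 4.26% of all genes were called. Against 16-week HFD the low gainers had lower Ptgs2, a cumulus expansion gene (-0.89, adjusted p = 0.0388), and Fos (-0.83, adjusted p = 0.0482), 2 of 13 where 20.7% of all genes were called. Their adjusted p with library totals were 0.0785 and 0.129.

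Immediate early genes, to which Zfp36 belongs, gave no call in 16 L (0 of 14 by edgeR, 6 with an unadjusted p under 0.05, as 32.4% of all genes had). In 16-week HFD, where 0.0276% of all genes were called, 1 of 13 was, the nuclear receptor Nr4a1 (26.2 to 8.42, log2 fold change -1.62, SE 0.257, adjusted p = 0.0265, edgeR). In the low gainers against HFD Nr4a1 was higher (1.35, adjusted p = 0.00499, edgeR) and Fos and Klf6 (-0.75) lower. These were 3 of 14 (21.4%), where 20.7% of all genes were called. Fos and Klf6 had adjusted p of 0.0517 and 0.0535 under RLE scaling (edgeR). The low gainers are set against the same HFD libraries in which Nr4a1 was called low. The higher value of Nr4a1 is therefore not separate from that call, and the list was chosen with earlier results known.

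**Figure D4:**
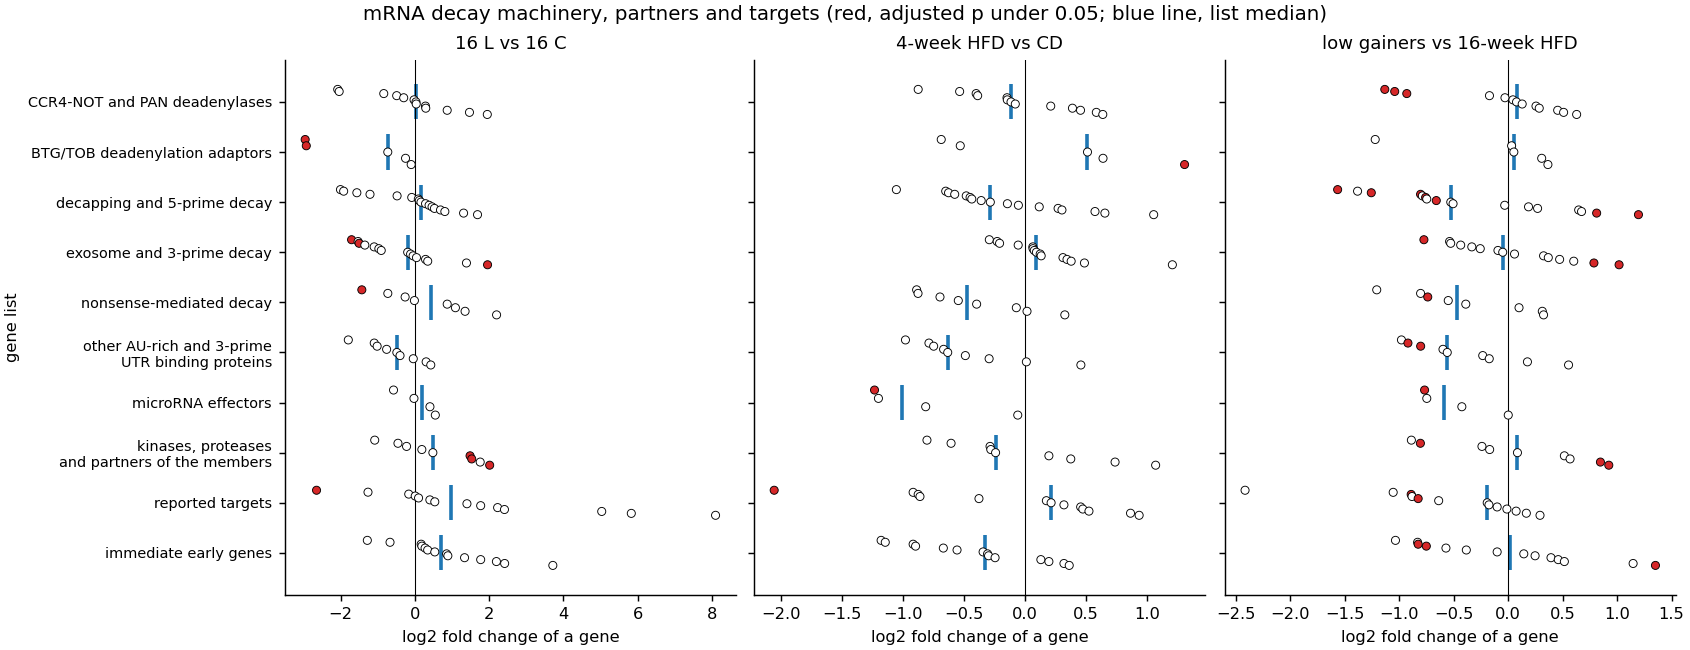
Log2 fold change (horizontal axis, with a different scale in each panel) of each gene of 10 lists in 3 comparisons, with called genes in red and the list median as a blue line. Tob1 (-2.95) and Btg1 (-2.92) lie far left in 16 L, and 5 decapping genes are called below 0 in the low gainers.

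The reads of some members cannot be told from those of a neighbour, since the Nextera library does not keep the strand. In the annotation Gm44710 overlaps Zfp36, Gm26669 overlaps Zfp36l1, and AC132455.1 overlaps Zfp36l2, each on the opposite strand, 1700010D01Rik overlaps Zc3h12b likewise, and 3 further annotated transcripts lie within Rc3h1 on its own strand.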

How the data were processed

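RNA of CCs was reverse transcribed from poly(A) by Smart-seq2 and tagmented with the Nextera XT kit, and the authors deposited raw counts of reads per gene for each library in 1 table, on GRCm38. The submitters' processing notes name Trim Galore 0.4.2 and HISAT2 2.0.5, and the counting program is not given in the sources used here. All 34 columns were mapped by title. Groups and replicate numbers came from the labels.

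Each comparison was fitted on all genes of its own 2 groups in R 4.3.3 with edgeR 4.0.16 (TMM, filterByExpr, robust quasi-likelihood F-test, two-sided), with p-values adjusted by Benjamini-Hochberg over all genes tested and called at 0.05. Fold changes are of 16 L over 16 C, HFD over CD, and low gainers over CD or HFD. The p-values measure the spread between libraries, which may in part be technical. Members that failed the filter were compared by an exact permutation test of mean log2(RPM + 1), RPM being reads per 1e6 of the library total. Over these 6 tests the lowest adjusted p was 0.429. The interaction of diet and time was not tested, since it contains the comparison that chose the members.

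The members and lists were chosen with earlier results of these data known. Named genes are the members, for each list and comparison the 2 largest rises and 2 largest falls past the threshold, the 5 genes most like Zc3h12c and the 3 most like each other member by Spearman correlation of log2 CPM (prior count 1), and the markers. Alternatives were DESeq2 1.42.0, RLE or total-count scaling, no filter, all 34 libraries in one fit, each replicate left out in turn and, for the permutation tests, 0.1 as the pseudocount. Leaving out 16-week CD replicates 1 and 2 together, and all libraries but 16 L replicate 18 in one fit, were added after the data were seen, as were the other scalings of the lists. The fits were also run on simulated data with large planted changes and no outlying library. That run differs from these data in both, and nothing about the results is read from it. Exon lengths and 3′ UTRs are of GENCODE M21, promoters of RefSeq. PCR reads carry no molecular identifiers, so limits cover counting error only. Among 72 replicate pairs none was identical. The result of 1 list gene is not reported here.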

Additional observations from a re-analysis of the deposited data

Results flagged for a closer look

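Among 45 sets of values (each gene in each group of 5 to 7 libraries), 5 had 1 library far from the rest by Dixon's test, where chance flags about 1 in 20. Zfp36l1 was at 676 in 16 L replicate 18, the library with the highest oviduct and red blood cell marker sums, and the next highest was 123. Zc3h12c was at 34.5 in 16 L replicate 19, where the next was 17.0, and without that library its log2 fold change was -3.14. Zc3h12a was at 8.28 in 16 L replicate 20, from 19 reads, with 1.69 next. Zc3h12d was at 5.35 in 16-week CD replicate 13, from 11 reads, with 1.94 next, and at 0.392 in 4-week CD replicate 8, which is 1 read where the other 4 libraries had none.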

How the results depend on the processing

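No paired analysis was possible because the groups compared share no replicate numbers. Genes called in 16 L against 16 C numbered 1004, 2367 by DESeq2, 3966 with library totals, 504 without a filter and 4383 with all libraries in one fit (5559 but for 16 L replicate 18, chosen after seeing the data). Leaving out 1 library gave 30 (16 C replicate 1) to 4635 (16 L replicate 18). At 4 weeks 499 became 1292 by DESeq2 and 69 with all libraries, and 8 (without CD replicate 8) to 1700 (without CD replicate 11). At 16 weeks 3 became 1110 by DESeq2, 1622 with library totals, 13 without a filter, 1258 with all libraries, 1 without CD replicates 1 and 2 together (chosen after seeing the data), and 1 (CD replicate 1, among others) to 2217 (CD replicate 9). For low gainers against CD 1 became 225 by DESeq2, 0 with library totals, 7 with all libraries, 3 without CD replicates 1 and 2, and 0 to 1. Against HFD 2330 became 487 with all libraries, and 596 (low gainer replicate 23) to 2737 (HFD replicate 6).

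Members called in 16 L numbered 2, and 4 with library totals, 4 with all libraries, 6 without 16 L replicate 18 as well, and 0 to 5 without 1 library. With library totals and with all libraries the calls over all genes, given above, rose too. At 4 weeks 0 became 1 by DESeq2 and 0 to 1, and in low gainers 0 became 1 by DESeq2 against CD, and 1 became 0 with all libraries and 0 to 1 against HFD, where Rc3h2 was -0.972 with all libraries and -1.18 to -0.835 without 1 library. Without 1 library Zc3h12c in 16 L stayed between -3.14 and -2.66 and Rc3h1 between -1.91 and -1.73. The group mean ratio of Zc3h12c was 4.91 with library totals.

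The sign turned only for members that were not called in the comparison, under the settings given here. With library totals Zfp36l1 and Rc3h2 in 16 L were 0.145 and 0.32, Zc3h12b at 4 weeks -0.132 (-0.00313 with all libraries), and Zfp36l1 and Rc3h1 in low gainers against HFD 0.00766 and 0.00313. Without 1 library, at 4 weeks, Zc3h12a ran from -0.352 to 0.159, Zc3h12b from -0.447 to 0.319, Zfp36l2 from -0.231 to 0.18. In low gainers against HFD Zc3h12d ran from -0.924 (without low gainer replicate 22) to 0.912 and Rc3h1 from -0.511 to 0.0679. Among differences of mean log2(RPM + 1), Zc3h12d ran from -0.0623 to 1.06 in 16 L and from -0.012 to 0.25 at 4 weeks, and Zc3h12a from -0.129 to 0.407 in low gainers against CD. The cause was not tested. Depth limits Zc3h12a, Zc3h12b and Zc3h12d most, with 290, 490 and 238 reads in all.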
